A study of Mus musculus with 3 samples.

Results

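Oxidative phosphorylation was followed here through 107 genes, 13 of the mitochondrial genome and 94 of the nuclear genome, in 3 libraries of nuclei from mouse epididymal fat at successive stages of diet-induced obesity. Genes were taken by symbol, namely all names that begin with mt-, Nduf, Uqcr, Cox4i, Cox5, Cox6, Cox7, Cox8 or Atp5, together with Sdha, Sdhb, Sdhc and Sdhd. The deposited tables held 29625 genes in all, and each of the 107 was present in each of the 3 tables. The animals were male C57BL/6J mice bought at 5 weeks of age and acclimated for 1 week. Ctrl mice ate ordinary chow, whereas the other groups were fed 60% fat until their body weight exceeded the control mean by over 10% (Mid_Ob) or over 20% (Ob). Fat of 8 mice was pooled into 1 library per stage, so no comparison between stages has a replicate check and no p-value is given.

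The depth was 53980929 UMIs (unique molecular identifiers, 1 per captured transcript) for Ctrl, 57665213 for Mid_Ob and 111595518 for Ob, over 14, 11 and 21 clusters of nuclei. Values are UMI counts scaled to the total of the library, or of the clusters named, as CPM. Ratios have 95% binomial intervals that cover counting error only. A gene was called higher or lower when its ratio passed 1.5-fold and the pair held at least 50 counts. The Ctrl library stood apart, as 4 germ cell-like clusters held 26.3% of its UMIs and a testis somatic-like cluster 15.4%. Clusters like epididymal epithelium took 5.32% of Ctrl UMIs and 30.3% of Mid_Ob UMIs. In bulk sums of this kind, fewer nuclei of a type and less RNA per nucleus cannot be told apart.

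In oxidative phosphorylation, electrons pass from NADH through complex I, or from succinate through complex II, to complex III and then to complex IV, which reduces oxygen. The proton gradient built on the way drives complex V, the ATP synthase. Complexes I, III, IV and V mix subunits encoded by mitochondrial DNA with subunits encoded in the nucleus, whereas complex II is wholly nuclear. Messenger RNA of the mitochondrial genes is made and kept inside mitochondria. White adipocytes use the pathway for ATP, and brown adipocytes dissipate the gradient as heat through Ucp1. Several complex IV subunits exist as tissue isoforms, with Cox6b2, Cox7b2 and Cox8c known from testis and Cox7a1 and Cox8b from muscle and brown fat.

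The promoters of 4 nuclear members are shown because these genes lay at opposite ends of the comparisons described below. Cox8a and Cox6b1 encode the forms of complex IV subunits found in most tissues, and Cox7b2 and Cox6b2 testis forms. Each sequence runs from 250 bases before to 50 bases after the RefSeq start, on build GRCm38.p6. Capitals mark an ETS motif (CCGGAAG or its complement CTTCCGG) or the letters of a TATA box (TATAAA or TTTATA). Both were matched at any position of the window, so a match to the TATA letters need not be a working TATA box.
Cox8a (chr19:7217567-7217866, minus strand): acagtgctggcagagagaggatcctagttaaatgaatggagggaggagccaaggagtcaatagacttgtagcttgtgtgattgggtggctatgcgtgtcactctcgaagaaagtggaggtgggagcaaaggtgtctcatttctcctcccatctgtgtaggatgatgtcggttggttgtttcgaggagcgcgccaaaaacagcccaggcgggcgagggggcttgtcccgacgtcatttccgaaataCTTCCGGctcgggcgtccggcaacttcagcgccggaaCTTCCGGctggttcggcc
Cox6b1 (chr7:30626065-30626364, minus strand): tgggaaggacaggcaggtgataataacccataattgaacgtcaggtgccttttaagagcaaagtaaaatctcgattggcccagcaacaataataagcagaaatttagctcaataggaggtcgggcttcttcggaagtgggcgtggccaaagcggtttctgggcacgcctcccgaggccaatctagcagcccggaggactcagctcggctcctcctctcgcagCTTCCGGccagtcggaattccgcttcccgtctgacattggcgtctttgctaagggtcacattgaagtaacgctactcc
Cox7b2 (chr5:71548156-71548455, minus strand): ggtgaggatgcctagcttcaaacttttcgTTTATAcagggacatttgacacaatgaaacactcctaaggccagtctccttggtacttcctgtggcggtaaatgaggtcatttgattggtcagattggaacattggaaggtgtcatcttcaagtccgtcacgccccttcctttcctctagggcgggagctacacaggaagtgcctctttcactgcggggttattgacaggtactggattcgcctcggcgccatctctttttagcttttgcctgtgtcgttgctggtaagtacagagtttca
Cox6b2 (chr7:4753045-4753344, minus strand): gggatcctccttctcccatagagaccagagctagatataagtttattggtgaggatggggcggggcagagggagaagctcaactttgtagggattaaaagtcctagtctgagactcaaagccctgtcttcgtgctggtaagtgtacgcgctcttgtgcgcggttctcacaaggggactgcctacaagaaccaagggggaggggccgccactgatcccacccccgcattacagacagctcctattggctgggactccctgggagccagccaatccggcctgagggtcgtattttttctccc
The window of Cox8a held 2 ETS motifs and that of Cox6b1 held 1. Those of Cox7b2 and Cox6b2 held no match to the exact ETS letters, and other sequences that ETS factors may bind were not sought. Cox7b2 held 1 match to the TATA letters. The window of Cox7b, a widespread form at 19.7 CPM in Ctrl and 45.5 in Ob, held neither motif and is not shown. That of Cox8b, the rare form with the highest ratio of Ob over Ctrl, held TATA letters and no ETS motif. The split among the 4 shown thus does not hold for all members.

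Of the 94 nuclear members, 75 were matched by symbol to a promoter in the RefSeq table. The ETS motif, which GABP (NRF2) can bind, was in 19 of these 75 windows (25.3%), against 9.93% of the 27025 gene symbols with a window. The palindrome bound by nuclear respiratory factor 1 was in 7 of 75 (9.33%), against 1.07% of all. Cox6a1, the widespread form of subunit 6a, held both motifs. The TATA letters were in 8 of 75 (10.7%), against 15.7% of all. Motifs were sought on both strands, a window may hold more than 1 of them, and a match is a description of the letters only.

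The mitochondrial genes took a growing share of the UMIs, 0.2201% (0.219 to 0.221) for Ctrl, 0.343% (0.342 to 0.345) for Mid_Ob and 0.472% (0.471 to 0.473) for Ob. Of the 13, 8 were called higher and 1 lower in Mid_Ob over Ctrl, where 17.3% of all genes were called higher and 35.5% lower. Relative to the median ratio of all genes in that pair, 10 were higher and 0 lower, where 22.1% and 32.1% of all genes were. In Ob over Ctrl 11 were higher and 1 lower, against 18.1% and 43.5% of all genes. In Ob over Mid_Ob 3 were higher and 1 lower, against 17.5% and 27.3%. With the 7 clusters above 1% mitochondrial UMIs left out, the share was 0.184% for Ctrl, 0.270% for Mid_Ob and 0.272% for Ob. The ratio of Ob over Mid_Ob was 1.37 with these clusters and 1.01 without them. Without them 4 genes were higher in Mid_Ob over Ctrl, 6 in Ob over Ctrl and 0 in Ob over Mid_Ob. The share of all genes called without these clusters was not computed. On further removal of the testis and epididymis clusters, an alternative added after seeing the data, the ratio of Ob over Mid_Ob was 0.915, below 1.

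**Figure D1:**
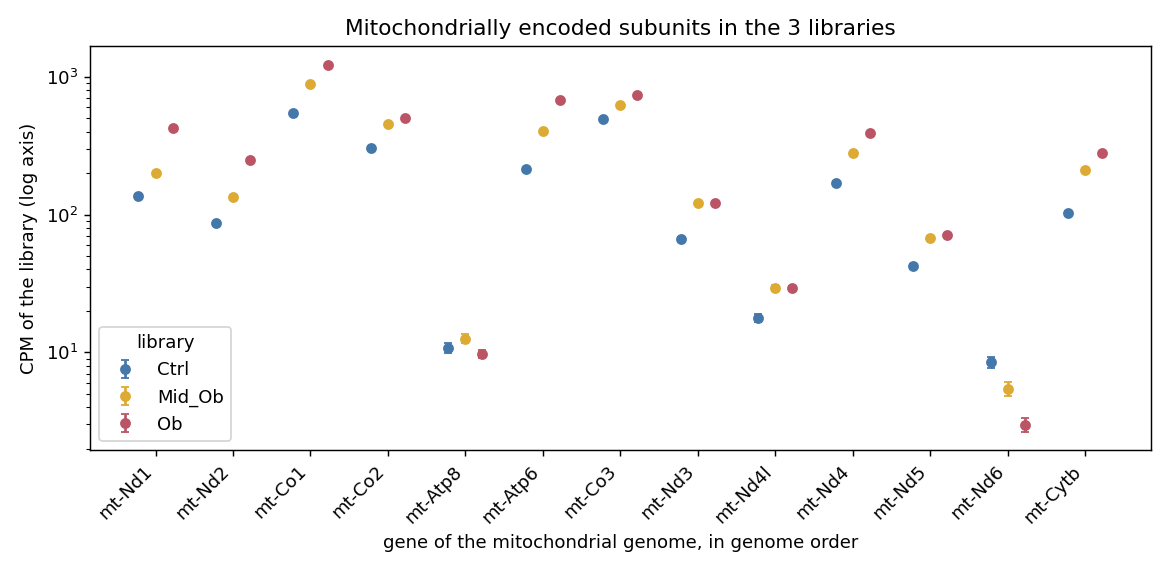
Level of each of the 13 mitochondrial genes (CPM of the library, log axis, genes in genome order) in Ctrl, Mid_Ob and Ob, with 95% Poisson intervals for counting error. mt-Nd6 lies at 2.98 CPM in Ob, against 8.47 CPM in Ctrl, while mt-Nd1 lies at 427 CPM in Ob, against 137 CPM in Ctrl.

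The genes of the heavy-strand transcript differed among themselves. mt-Nd1, a core subunit of complex I, was at 137 CPM in Ctrl, 199 in Mid_Ob and 427 in Ob, a ratio of 3.11 (3.04 to 3.19) in Ob over Ctrl. mt-Atp6, the proton channel subunit of ATP synthase, stood at 214, 406 and 675 CPM, with a ratio of 3.15 (3.09 to 3.21). mt-Cytb, the only complex III protein of mitochondrial DNA, stood at 103, 212 and 280 CPM. mt-Co1, the catalytic subunit of complex IV, had the most counts and stood at 546, 886 and 1226 CPM. For these 4 genes the order of the stages was the same, and mt-Nd2 (86.5, 133 and 248 CPM), mt-Nd4 (171, 280 and 390 CPM), mt-Co2 (306, 453 and 499.5 CPM) and mt-Co3 (491, 627 and 739 CPM) shared it. mt-Nd3, at 66.8, 122 and 120.4 CPM, and mt-Nd4l, at 17.7, 29.4 and 29.2 CPM, had ratios of Ob over Mid_Ob of 0.988 (0.960 to 1.02) and 0.993 (0.936 to 1.05), whose intervals include 1. mt-Nd5 stood at 42.3, 67.7 and 70.9 CPM.

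mt-Nd6 and mt-Atp8 were the only mitochondrial genes with a ratio below 1 in Ob over Ctrl. mt-Nd6, the only protein gene on the light strand, was at 8.47 CPM in Ctrl (457 counts), 5.43 in Mid_Ob (313) and 2.98 in Ob (332). Its ratio was 0.641 (0.553 to 0.742) in Mid_Ob over Ctrl and 0.351 (0.304 to 0.406) in Ob over Ctrl. mt-Atp8, whose reading frame overlaps mt-Atp6, was at 10.8, 12.5 and 9.74 CPM, a ratio of 0.905 (0.818 to 1.003) in Ob over Ctrl. As a share of all mitochondrial UMIs, mt-Nd6 made up 0.385%, 0.158% and 0.0630%, and mt-Atp6 9.73%, 11.8% and 14.3%. Within adipocyte-like clusters mt-Nd6 was lower in Ob than in Ctrl (0.344, 0.236 to 0.505) and close to Ctrl in Mid_Ob (1.05, 0.737 to 1.51). mt-Atp8 with mt-Atp6 and mt-Nd4l with mt-Nd4 share transcripts and overlapping bases, so how their reads were divided depends on the counting.

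Mitochondrial UMIs were unevenly spread over the clusters. Clusters 13, 16 and 18 of Ob held 3.02% of its UMIs but 44.2% of its mitochondrial UMIs and 16.97% of its nuclear member UMIs. Cluster 18 had 8.39% mitochondrial UMIs with 20681 CPM of nuclear members, and cluster 13 had 6.18% with 14667 CPM. Both averages exceed the 5% limit of mitochondrial UMIs per cell in the methods of the study, so the deposited tables hold nuclei above that limit. In Mid_Ob, clusters 5, 9 and 11 had 2.98%, 1.13% and 1.31%, and in Ctrl cluster 1 had 1.85%. These clusters held 26.3% of the mitochondrial UMIs of Mid_Ob and 18.2% of those of Ctrl, so most mitochondrial UMIs of every library lay outside the clusters above 1%. Clusters 13 and 18 of Ob carried markers of several cell types at once, with 11 of 16 adipocyte markers over 2-fold in each, and 11 and 10 of 12 mesothelial markers. They also held 8259 and 7346 CPM of 5 red blood cell markers, and 78255 and 109759 CPM of 83 ribosomal protein genes. The part of these transcripts in the mitochondrial values was not tested. The median mitochondrial share of a cluster was 0.233% for Ctrl, 0.411% for Mid_Ob and 0.417% for Ob.

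**Figure D2:**
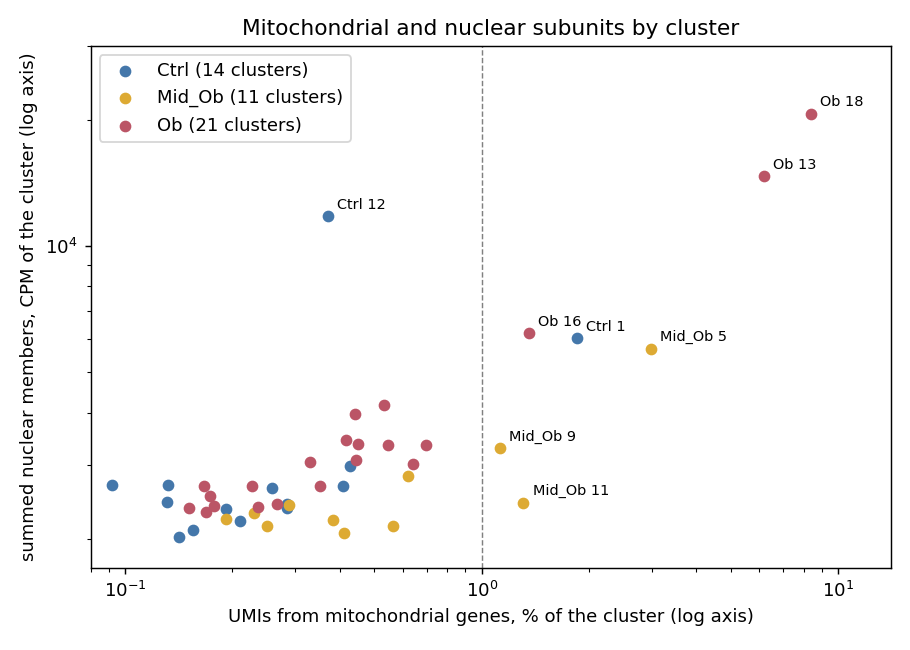
Each point is 1 cluster, with its share of mitochondrial UMIs (x axis, %, log) and the summed level of the 94 nuclear members (y axis, CPM of the cluster, log), and the dashed line marks 1%. Clusters 13 and 18 of Ob lie at the upper right, while germ cell-like cluster 12 of Ctrl is high on the y axis at 11762 CPM and lies left of the line.

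Across the 21 clusters of Ob the summed nuclear members followed the mitochondrial share, with Pearson's r of 0.96 on log2 values and Spearman's rho of 0.85. Without the 3 clusters above 1% the values were 0.81 and 0.76 over 18 clusters. In Mid_Ob they were 0.81 and 0.59 over 11 clusters, but 0.32 and 0 over the 8 clusters at or below 1%. In Ctrl they were 0.57 and 0.42 over 14 clusters, and 0.41 and 0.30 over the 13 at or below 1%. Between the nuclear members and the 83 ribosomal protein genes r was 0.81 and rho 0.35 for Ctrl, 0.94 and 0.75 for Mid_Ob, and 0.98 and 0.97 for Ob. Over the clusters at or below 1% they were 0.77 and 0.19 for Ctrl, 0.65 and 0.69 for Mid_Ob, and 0.96 and 0.95 for Ob. Clusters of 1 library share its preparation and depth, so these values describe that library only.

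The sum of the 94 nuclear members stood at 2649.97 CPM for Ctrl, 2269.98 for Mid_Ob and 3041.75 for Ob. In Mid_Ob over Ctrl the sum had a ratio of 0.857 (0.850 to 0.863), with 5 of 92 members higher and 13 lower (17.3% and 35.5% of all genes). The ratio of Ob over Mid_Ob was 1.34 (1.33 to 1.35), with 38 of 91 higher and 0 lower, where 17.5% and 27.3% of all genes were higher and lower. For Ob over Ctrl it was 1.15 (1.14 to 1.15), with 35 of 93 higher and 7 lower (18.1% and 43.5% of all genes). The median log2 ratio of the members was -0.10, 0.48 and 0.42 in these comparisons, against -0.16, -0.09 and -0.35 for all genes tested. Relative to those medians of all genes, 8 members were higher and 10 lower in Mid_Ob over Ctrl, where 22.1% and 32.1% of all genes were on that scale. There were 43 and 0 in Ob over Mid_Ob (20.2% and 24.7% of all genes), and 59 and 5 in Ob over Ctrl (28.9% and 36.6%). Without the clusters above 1% mitochondrial UMIs, 21 members were higher in Ob over Mid_Ob and 22 in Ob over Ctrl. The sum ratios were then 1.18 and 1.01, and the share of all genes called without these clusters was not computed. The 83 ribosomal protein genes summed to 2841 CPM for Ctrl, 3940 for Mid_Ob and 7684 for Ob, and 5 red blood cell markers to 56.4, 46.5 and 559 CPM, and the part of either in the result was not tested.

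By complex, the higher members of Ob over Mid_Ob were 6 of 8 in complex III, 11 of 17 in complex IV, 8 of 17 in complex V and 12 of 30 accessory subunits of complex I. Of the core subunits of complex I 1 of 7 was higher, with 0 of 8 assembly factors and 0 of 4 complex II subunits. Among all genes in this pair 17.5% were higher, and counts of 0 or 1 in groups of 4 to 8 genes cannot be told apart from that share. The complex sums had ratios of 1.62 (1.58 to 1.66) for III, 1.74 (1.71 to 1.77) for IV, 1.40 (1.38 to 1.42) for V and 1.33 (1.31 to 1.34) for the accessory subunits. They were 0.969 (0.948 to 0.990) for the core subunits, 1.03 (1.003 to 1.05) for the assembly factors and 0.965 (0.943 to 0.987) for complex II. The core subunits carry the flavin and iron-sulfur clusters of electron transfer, and accessory subunits surround them.

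**Figure D3:**
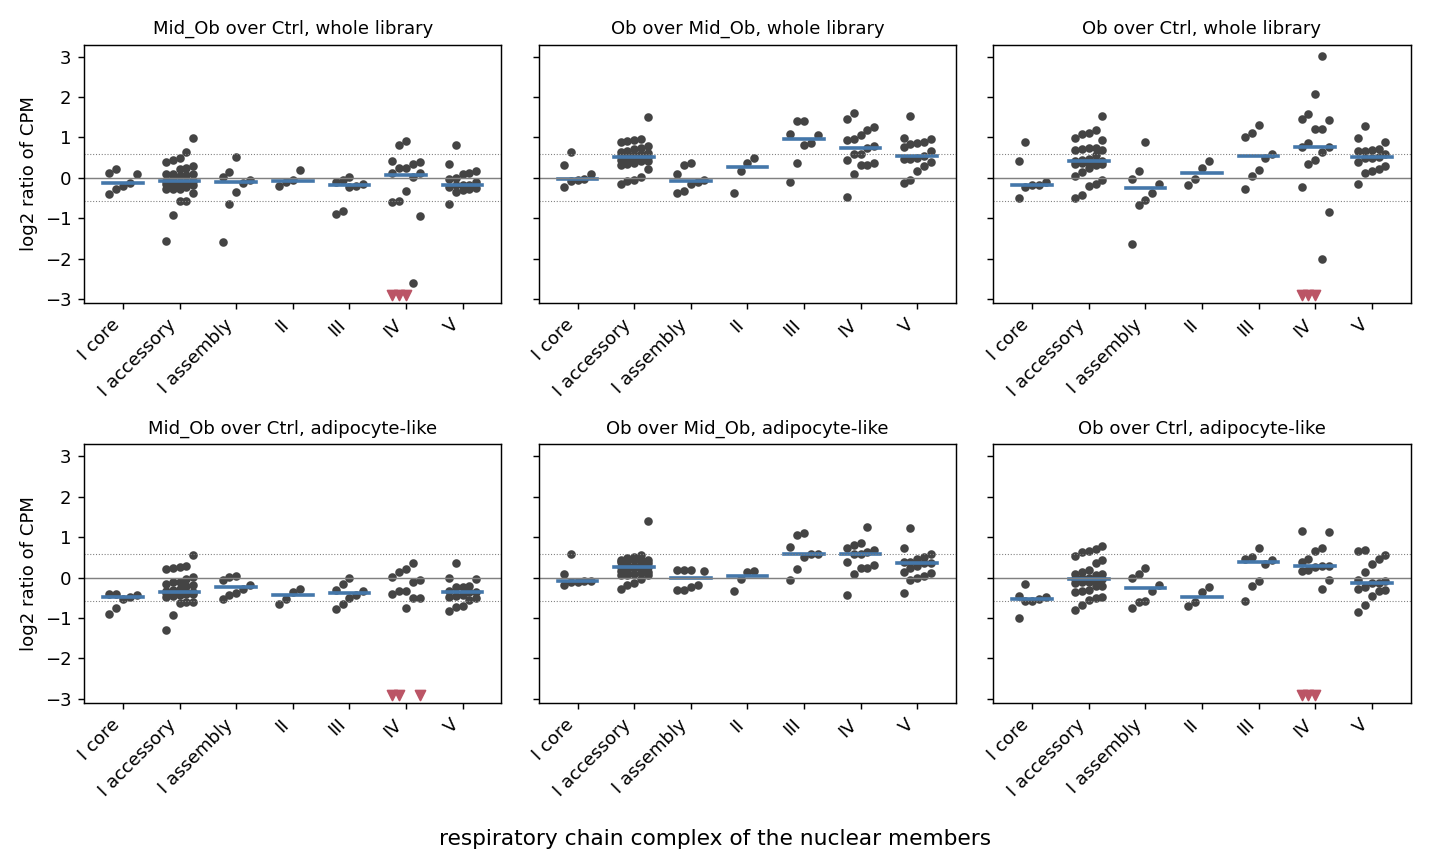
Log2 ratio of CPM for each nuclear member with at least 50 counts (points) by complex, for the 3 pairs of stages, in whole libraries and in adipocyte-like clusters. Blue bars are medians, dotted lines mark 1.5-fold, and red triangles are members below the axis or with a ratio of 0 (Cox6b2, Cox7b2 and Cox8c). No bar is drawn for complex IV in adipocyte-like clusters of Mid_Ob over Ctrl, where the lowest ratio was 0. For Ob over Mid_Ob in whole libraries, complexes III and IV have the highest medians.

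Cox8a, a small complex IV subunit, had the highest ratio of Ob over Ctrl after the rare Cox8b. It stood at 25.8 CPM for Ctrl, 45.5 for Mid_Ob and 109 for Ob, with ratios of 1.77 (1.65 to 1.89) in Mid_Ob over Ctrl and 4.21 (3.98 to 4.46) in Ob over Ctrl. Outside the clusters above 1% mitochondrial UMIs Cox8a was at 24.4 CPM for Ctrl, 43.2 for Mid_Ob and 77.8 for Ob. Each of the 21 clusters of Ob had at least 51.8 CPM of Cox8a, while 13 of the 14 clusters of Ctrl had at most 49.8. Clusters of 1 library share its preparation, so they are not repeats of the comparison. Cox5b, the zinc-binding subunit of complex IV, was at 7.30, 7.87 and 21.7 CPM, and Cox6b1, which faces the intermembrane space, at 19.99, 26.1 and 54.8 CPM. Ndufa4, once assigned to complex I and now to complex IV, was at 17.4, 20.5 and 46.9 CPM. Cox4i1, the widespread form of subunit 4, stood at 43.2, 44.1 and 73.4 CPM, and Cox7c, the complex IV member with most counts, at 52.0, 65.7 and 88.9 CPM. Each of these genes was highest in Ob.

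Small subunits of the other complexes differed in their order over the stages. Uqcrb, a ubiquinone-binding subunit of complex III, was at 10.6 CPM in Ctrl, 9.87 in Mid_Ob and 26.4 in Ob, a ratio of 2.67 (2.44 to 2.93) in Ob over Mid_Ob. Uqcrq, also of complex III, was at 24.0, 12.9 and 33.9 CPM. Atp5e, the epsilon subunit of ATP synthase, was at 13.4, 11.2 and 32.6 CPM, a ratio of 2.90 (2.67 to 3.16) in Ob over Mid_Ob. Ndufb11, an accessory subunit of complex I, was at 5.24, 10.3 and 15.2 CPM, and Ndufb3, another, at 39.5, 51.4 and 85.0 CPM. Uqcrb, Uqcrq and Atp5e thus lay at or below Ctrl in Mid_Ob and above it in Ob, whereas Ndufb11 and Ndufb3 lay above Ctrl in both. The genes of the ATP synthase c-ring, which encode the same mature protein, differed, as Atp5g1 was at 9.003, 15.9 and 14.6 CPM, Atp5g2 at 31.3, 33.9 and 46.9 CPM, and Atp5g3 at 26.5, 20.8 and 28.9 CPM.

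The most counted members of the other groups varied less. Ndufs4, an accessory subunit of complex I mutated in Leigh syndrome in humans, stood at 162 CPM in Ctrl, 153 in Mid_Ob and 147 in Ob. Ndufs1, the largest core subunit, stood at 83.2, 76.7 and 73.4 CPM. Sdha, the flavoprotein of complex II, was at 110, 127 and 97.8 CPM, Uqcrc2, a core protein of complex III, at 56.0, 49.995 and 46.3 CPM, and Atp5c1, the gamma subunit that turns inside ATP synthase, at 73.8, 68.7 and 66.2 CPM. Ndufaf2, an assembly factor of complex I, was at 81.9, 52.4 and 55.9 CPM. None of these 6 passed 1.5-fold in Ob over Ctrl or Ob over Mid_Ob, and Ndufaf2 did in Mid_Ob over Ctrl (0.639, 0.610 to 0.670). Counts were not scaled by gene length, so they do not by themselves rank RNA levels of different genes. This holds here and where genes are called rare or most counted.

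The members were also split into 3 groups by annotated span, at 5.06 and 9.49 kb. Of them 17 of 29 short, 18 of 31 middle and 3 of 31 long members were higher in Ob over Mid_Ob. Among all genes in the same span ranges the shares called higher were 25.2%, 19.3% and 15.6%. The median log2 ratio of the members was 0.60, 0.68 and 0.10, against 0.02, -0.05 and -0.12 for all genes. Within adipocyte-like clusters 12 of 27 short, 3 of 31 middle and 1 of 30 long members were higher, where 23.8%, 17.9% and 13.4% of all genes were. The other pairs differed in these clusters. In Mid_Ob over Ctrl 0 of 27 short members were higher and 9 lower, where 24.3% and 17.7% of all short genes were. In Ob over Ctrl 7 of 28 short members were higher and 3 lower, where 35.5% and 20.7% of all short genes were. Levels in the clusters above 1% mitochondrial UMIs exceeded those in the other clusters of Ob by a median of 11.7-fold for short, 9.59-fold for middle and 3.15-fold for long members, by 3.91-fold, 2.78-fold and 1.65-fold in Ctrl, and by 2.25-fold, 1.73-fold and 1.23-fold in Mid_Ob. The part of these clusters in the library values was not tested beyond the values without them. Of the 94 nuclear members, 7 overlap another annotated gene on the same strand and 32 one on the opposite strand, and whether the counting used strand is not given in the sources used here.

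**Figure D4:**
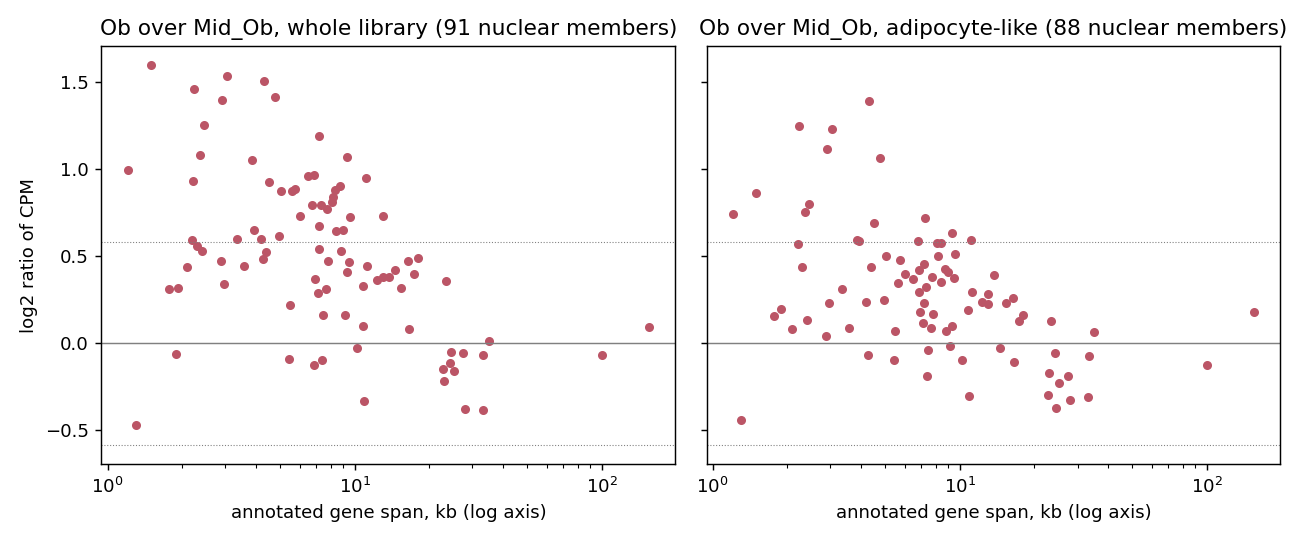
Log2 ratio of CPM in Ob over Mid_Ob (y axis) against the annotated span of the gene in kb (x axis, log) for 91 nuclear members in whole libraries (left) and 88 in adipocyte-like clusters (right), with dotted lines at 1.5-fold. Long members lie near 0, with a median log2 ratio of 0.10 in each panel.

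The testis isoforms of complex IV separated Ctrl from both other stages. Cox8c had 4881 counts in Ctrl (90.4 CPM), 4 in Mid_Ob and 5 in Ob. Cox7b2 had 8030 counts in Ctrl (149 CPM), 22 in Mid_Ob and 18 in Ob. Cox6b2 had 3163 counts in Ctrl (58.6 CPM), 130 in Mid_Ob and 182 in Ob. Together these 3 genes accounted for 11.2% of the nuclear member UMIs of Ctrl, 0.119% of those of Mid_Ob and 0.0604% of those of Ob. Of their Ctrl UMIs, 67.1% lay in germ cell-like clusters and 18.2% outside all testis and epididymis clusters. Cox8c peaked in cluster 12 at 2927 CPM, Cox7b2 in cluster 13 at 554 CPM and Cox6b2 in cluster 7 at 249 CPM, so that different germ cell-like clusters led for each. In mesothelial-like clusters Cox6b2 also stood at 17.97 CPM in Mid_Ob and 20.6 CPM in Ob, against 1.07 and 0.793 CPM in adipocyte-like clusters of the same libraries.

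With these 3 genes left out, an alternative added after the data were seen, the nuclear sum had a ratio of 0.964 in Mid_Ob over Ctrl and 1.29 in Ob over Ctrl, and 4 rather than 7 members were lower in Ob over Ctrl. The 4 were Ndufa4l2, Ndufaf3, Cox4i2 and Ndufaf7. Ndufa4l2, a hypoxia-induced relative of Ndufa4, was at 3.98 CPM for Ctrl, 0.659 for Mid_Ob and 0.995 for Ob, and at 54.2 CPM in cluster 12 of Ctrl. Ndufaf3, an assembly factor of complex I, was at 12.2 CPM for Ctrl, 4.06 for Mid_Ob and 3.90 for Ob, and at 104 CPM in cluster 12 of Ctrl. Ndufc1 and Uqcrq, which were lower in Mid_Ob than in Ctrl, also peaked in cluster 12 of Ctrl, at 279 and 316 CPM. Cox4i2, the oxygen-sensitive form of subunit 4, had 74 counts for Ctrl, 41 for Mid_Ob and 85 for Ob, and reached 7.58 CPM in the endothelial-like cluster of Mid_Ob. Of the 5 members higher in Mid_Ob over Ctrl (Ndufb11, Cox7a1, Cox8a, Atp5g1 and Ndufv3) none passed 1.5-fold without the testis and epididymis clusters.

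Isoforms of muscle and brown fat were rare. Cox8b had 8 counts in Ctrl, 23 in Mid_Ob and 135 in Ob, a ratio of 8.16 (4.03 to 19.3) in Ob over Ctrl that rests on 8 counts. Cox7a1 had 17, 34 and 82 counts, a ratio of 2.33 (1.37 to 4.197) in Ob over Ctrl. Cox6a2, the muscle form of subunit 6a, was under the minimum of 50 counts in all pairs. The widespread partners were far more counted, with 1391, 2625 and 12114 counts of Cox8a and 1689, 1205 and 4431 of Cox7a2. Ucp1, the heat-producing carrier of brown fat, had 6, 8 and 5 counts.

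Adipocyte-like clusters were named from 16 adipocyte markers, of which 16 were over 2-fold in cluster 2 of Ctrl and cluster 1 of Mid_Ob, and 16, 14 and 15 in clusters 4, 5 and 7 of Ob. Their nuclear members summed to 2693 CPM for Ctrl, 2142 for Mid_Ob and 2444 for Ob. The ratio was 0.795 (0.785 to 0.806) in Mid_Ob over Ctrl, with 0 of 89 members higher and 17 lower, where 15.3% of all genes were higher and 20.2% lower. For Ob over Mid_Ob it was 1.14 (1.13 to 1.15), with 16 of 88 higher and 0 lower (15.3% and 19% of all genes). For Ob over Ctrl it was 0.907 (0.897 to 0.918), with 11 of 90 higher and 12 lower (18.8% and 27.6%), and 14 higher and 7 lower relative to the median log2 ratio of all genes, -0.12 (22.3% and 24.2% of all genes on that scale). The shares of members higher were thus near or below those of all genes in these pairs. The germ cell markers (20 in the Ctrl and Mid_Ob tables, 19 in the Ob table) summed to 686 CPM in cluster 2 of Ctrl, 140 CPM in cluster 1 of Mid_Ob and 151 to 262 CPM in the Ob clusters, and their part in the result was not tested. Nor was that of ribosomal protein genes, at 2098, 2352 and 4001 CPM in these classes, or of red blood cell markers, at 36.9 CPM in Ctrl, 33.2 in Mid_Ob and 208 to 487 in the Ob clusters. Without Cox6b2, Cox7b2 and Cox8c the sum ratios were 0.816 in Mid_Ob over Ctrl and 0.931 in Ob over Ctrl.

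Comparing Ob with Ctrl within adipocyte-like clusters, the core subunits of complex I summed to a ratio of 0.689 (0.665 to 0.714), complex II to 0.713 (0.686 to 0.741) and complex V to 0.867 (0.846 to 0.889). The assembly factors of complex I had 0.903 (0.865 to 0.942), its 30 accessory subunits 0.973 (0.952 to 0.994), complex III 0.970 (0.929 to 1.01) and complex IV 1.09 (1.06 to 1.12). Ndufv1, which binds NADH and flavin, was at 9.03 CPM in Ob, against 18.1 in Ctrl (0.498, 0.428 to 0.581). Atp5c1 was at 65.5 CPM in Ob, against 118 in Ctrl (0.557, 0.526 to 0.590), and Sdha at 93.7 CPM, against 144 (0.652, 0.620 to 0.687). In the other direction Cox8a was at 74.8 CPM in Ob, against 33.3 in Ctrl (2.24, 2.04 to 2.48), and Ndufb3 at 106 CPM, against 60.9 (1.74, 1.61 to 1.87). The other lower members were Ndufa5, Ndufa12, Ndufaf5, Ndufaf6, Sdhd, Atp5g3 and the 3 testis isoforms, and the other higher ones Cox8b, Uqcrb, Cox5b, Ndufb11, Atp5e, Atp5g1, Ndufa1, Cox6b1 and Ndufb1-ps.

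Comparing Mid_Ob with Ctrl, all 7 core subunits of complex I and all 4 complex II subunits had ratios below 1 in adipocyte-like clusters, from 0.533 to 0.759 and from 0.634 to 0.816. This was not particular to them, as the 8 complex III members also lay below 1, from 0.579 to 0.999. Of all nuclear members tested there, 76 of 89 were below 1, as were 9701 of 17042 genes. Ndufa5 and Ndufc1, accessory subunits of complex I, had the lowest ratios outside the testis isoforms, 0.530 (0.429 to 0.656) and 0.405 (0.314 to 0.522). The highest in Ob over Mid_Ob were Ndufc1 at 2.63 (2.16 to 3.23), Cox5b at 2.38 (1.99 to 2.85), Atp5e at 2.35 (2.01 to 2.77), Uqcrq at 2.17 (1.89 to 2.50) and Uqcrb at 2.09 (1.80 to 2.45). The mitochondrial genes of the same clusters took 0.132% of the UMIs for Ctrl, 0.2497% for Mid_Ob and 0.251% for Ob. Their sum ratio was 1.89 (1.86 to 1.92) in Mid_Ob over Ctrl, with 11 of 13 higher (15.3% of all genes higher, 20.2% lower). In Ob over Ctrl it was 1.90 (1.87 to 1.93), with 8 higher and 1 lower (18.8% and 27.6% of all genes). For Ob over Mid_Ob it was 1.01 (0.997 to 1.01), with 0 higher and 2 lower (15.3% and 19% of all genes). Without cluster 5 or 7 of Ob this last ratio was 0.916 or 0.95, with 4 lower, and without cluster 4 it was 1.13, with 2 higher. Thus nuclear and mitochondrial sums lay on opposite sides of 1 in Mid_Ob over Ctrl and in Ob over Ctrl. In Ob over Ctrl, however, the median log2 ratio of the nuclear members was -0.08, slightly above that of all genes tested, -0.12.

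**Figure D5:**
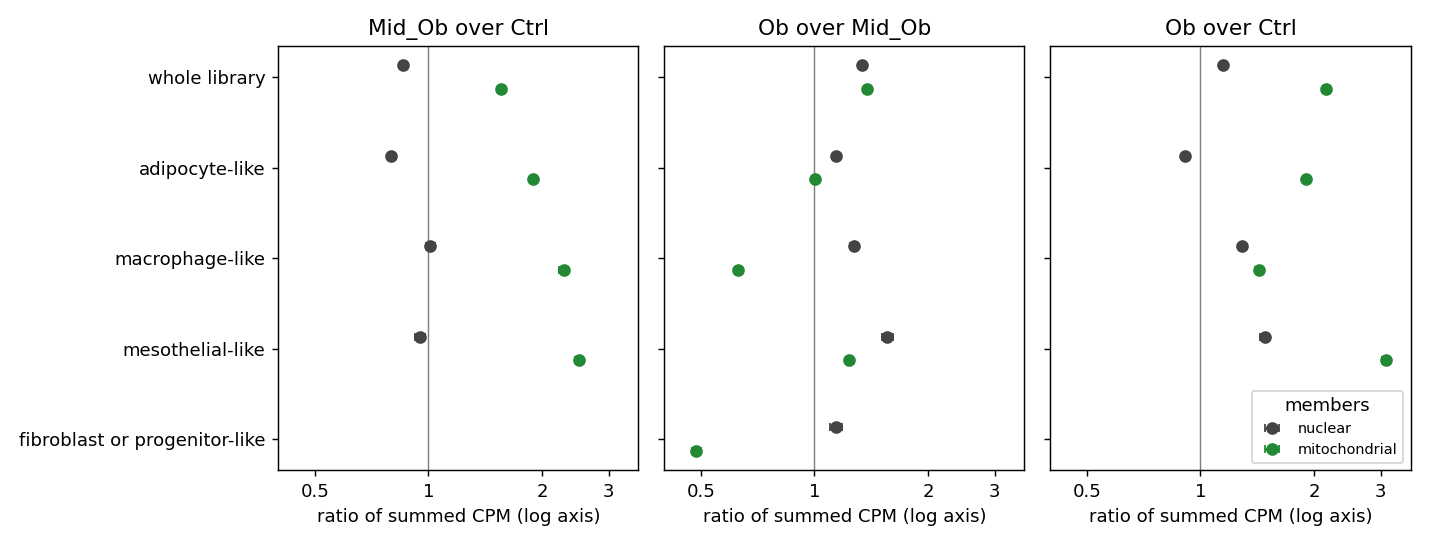
Ratio of summed CPM (x axis, log) of the nuclear and of the mitochondrial members for the 3 pairs of stages, in whole libraries and in 4 classes of clusters, with 95% counting intervals, most of which are narrower than the point. In Ob over Mid_Ob the mitochondrial points of macrophage-like and fibroblast or progenitor-like clusters lie at 0.627 and 0.487, left of 1, while their nuclear points lie right of it.

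In macrophage-like clusters the nuclear sum was 2194 CPM for Ctrl, 2220.32 for Mid_Ob and 2825 for Ob. In Mid_Ob over Ctrl 5 of 86 members were higher and 5 lower, where 8.71% and 14.8% of all genes were, with a ratio of 1.01 (0.983 to 1.04). Without cluster 9 of Ctrl 9 were higher and 2 lower, and without cluster 11 of Ctrl 3 were higher and the ratio was 0.943. Among 89 members tested in Ob over Ctrl, 35 were higher and 5 lower, where 13.7% of all genes were higher and 24.1% lower, and the sum ratio was 1.29 (1.26 to 1.31). For Ob over Mid_Ob 31 of 86 were higher and 0 lower (13.1% and 18.4% of all genes), with a ratio of 1.27 (1.24 to 1.30). Ribosomal protein genes of these clusters summed to 3326 CPM for Ctrl, 4234 for Mid_Ob and 6442 for Ob. Red blood cell markers were at 40.0 and 139 CPM in the Ctrl clusters, 27.3 in that of Mid_Ob and 197 to 783 in those of Ob, and the part of either in these results was not tested. Leaving out cluster 1 of Ob reduced the 31 to 18, and leaving out cluster 11 of Ctrl reduced the 35 to 22. The mitochondrial genes stood at 0.168% of UMIs for Ctrl, 0.382% for Mid_Ob and 0.2397% for Ob, and 12 of 13 were higher in Mid_Ob over Ctrl and 10 of 13 lower in Ob over Mid_Ob. Comparing Ob with Ctrl, 7 were higher and 2 lower in Ob, and 2, 3 and 4 were higher without cluster 1, 11 or 14 of Ob and 3 without cluster 11 of Ctrl. The 5 nuclear members lower in Ob over Ctrl were 3 without cluster 9 of Ctrl.

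In mesothelial-like clusters the nuclear sum was 2258 CPM for Ctrl, 2145 for Mid_Ob and 3345 for Ob. In Mid_Ob over Ctrl 4 of 85 members were higher and 7 lower, where 8.06% and 12.3% of all genes were, with a ratio of 0.9496 (0.919 to 0.981). Without cluster 3 of Ctrl 2 were higher and 16 lower, and without cluster 5 of Ctrl 7 were higher and the ratio was 1.02. Comparing Ob with Mid_Ob, 48 of 83 members were higher in Ob and 0 lower, where 13.3% and 9.58% of all genes were, with a sum ratio of 1.56 (1.51 to 1.61). For Ob over Ctrl 47 of 88 were higher and 5 lower (15.3% and 18.1%), with a ratio of 1.48 (1.44 to 1.52). The ribosomal protein sum of these clusters was 3486 CPM for Ctrl, 4493 for Mid_Ob and 10484 for Ob, with 74 of 80 higher in Ob over Mid_Ob. Red blood cell markers stood at 45.4 and 82.7 CPM in the Ctrl clusters, 47.1 in that of Mid_Ob and 1037 in that of Ob, and the part of either was not tested. Mitochondrial genes took 0.225% for Ctrl, 0.565% for Mid_Ob and 0.699% for Ob. Their ratio of 3.10 in Ob over Ctrl was 1.71 without cluster 3 of Ctrl, and that of 2.51 in Mid_Ob over Ctrl was 1.39 without it, and 7 rather than 11 mitochondrial genes were then higher in Ob over Ctrl. Without cluster 5 of Ctrl 3 rather than 5 nuclear members were lower in Ob over Ctrl. In fibroblast or progenitor-like clusters, which were named in Mid_Ob and Ob only, the nuclear ratio of Ob over Mid_Ob was 1.14 (1.10 to 1.18), with 21 of 84 higher and 0 lower (18.6% and 13.4% of all genes). The mitochondrial ratio was 0.487 (0.473 to 0.501), with 10 of 11 genes lower. Without cluster 8 or 19 of Ob it was 0.574 or 0.410, and 1 nuclear member was then lower.

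Genes beside the complexes were counted in lists of related function. Of 20 other respiratory chain and carrier genes, 6 were higher and 3 lower in Ob over Ctrl, where 18.1% and 43.5% of all genes were. Cytochrome c showed the same split of isoforms, as Cycs, the somatic form, was at 25.5 CPM in Ob, against 8.67 in Ctrl, and Cyct, the testis form, which was picked after its values were seen, had 16 counts in Ob, against 729 in Ctrl. Slc25a31, the ADP/ATP carrier of germ cells, had 57 counts in Ob, against 1145 in Ctrl, while Slc25a5, a widespread carrier, was at 24.5 CPM in Ob, against 5.56 in Ctrl. Etfa, which delivers electrons from fatty acid oxidation, was at 136 CPM in Ctrl, 157 in Mid_Ob and 315 in Ob. Gpd2, the mitochondrial glycerol phosphate dehydrogenase, was among the lower ones, with a ratio of 0.480. Of 32 assembly factors outside the symbol rule, 7 were higher and 4 lower in Ob over Ctrl, with Cox19, a copper-handling factor of complex IV, at 47.0 CPM in Ob, against 22.2 in Ctrl, and Nubpl, an iron-sulfur factor of complex I, at 42.0 CPM, against 81.7.

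Of 16 genes of mitochondrial gene expression and its regulators, 0 were higher and 5 lower in whole libraries in Ob over Ctrl, where 18.1% and 43.5% of all genes were. In adipocyte-like clusters 0 were higher and 7 lower, against 18.8% and 27.6% of all genes. Among these Ppargc1b, a coactivator of mitochondrial biogenesis, was at 63.6 CPM in Ob, against 109 in Ctrl. Esrra, its nuclear receptor partner, was at 53.1 CPM in Ob, against 84.9 in Ctrl, Lrpprc, which stabilises mitochondrial mRNA, at 49.9 CPM, against 89.6, and Gabpa, the DNA-binding subunit of GABP, at 21.6 CPM, against 38.4. Of 13 citric acid cycle genes 0 were higher and 4 lower there, with Suclg2, a subunit of succinyl-CoA ligase, at 74.7 CPM in Ob, against 124 in Ctrl. Among the uncoupling proteins, Ucp2 was at 40.8 CPM in Ob, against 12.2 in Ctrl, and Ucp3 at 57.1 CPM, against 35.5, in the same clusters. Of 3 RNAs retained in the nucleus, Malat1 was at 22035 CPM in Ctrl, 42023 in Mid_Ob and 54057 in Ob over the whole libraries, and Meg3 at 334 CPM, 198 and 461. Neat1 did not pass 1.5-fold there.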

How the data were processed

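Nuclei of epididymal fat from 8 pooled mice per stage were sequenced on the 10x Genomics platform, and reads were aligned by the authors in Cell Ranger, which runs STAR. Versions, genome build, annotation and strand setting: not given in the sources used here. The authors deposited 1 table per library, with 3 columns per cluster. The signal column is the deposited mean count, UMIs of a gene summed over a cluster and divided by its summed size factor. Whole counts were recovered from it, since 100% of values were whole multiples of 1 step per cluster within 0.001. The deposited log2 fold changes and adjusted p-values are the authors' own contrasts of clusters and were not used. No other per-sample columns were left out (0).

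Counts were summed over clusters with pandas 2.3.3 and numpy 2.4.6 in Python 3.11.15 and divided by all UMIs of the library or class, 53980929 to 111595518 per library. Intervals are exact Poisson for CPM, exact Clopper-Pearson for shares and conditional binomial for ratios (95%, scipy 1.17.1), and cover counting error only. Those for ratios were tested on simulated Poisson counts, which hold no variation between mice or libraries. With 1 library per stage no count test between stages was possible. Clusters were named from at least 3 markers over 2-fold (relative to the median across remaining clusters, 10 counts or more), after these values were seen, and those without clear markers stayed unnamed. No doublets or free RNA were removed here, since the tables hold no single nuclei. Genes named in the text are all mitochondrial members, the 5 highest and 5 lowest nuclear ratios per pair in whole libraries and adipocyte-like clusters, the most counted member per complex, tissue isoforms, and up to 4 genes past 1.5-fold per list and pair, by counts. Other members named to complete a count were chosen after their values were seen. Members and lists were chosen with earlier results of these data known, and the 83 ribosomal protein genes were added as a comparator after seeing the data. Gene spans and overlaps are from GENCODE M21, which held 29593 of 29625 gene identifiers (99.9%), and promoters are from RefSeq, GRCm38.p6. Figures were drawn with matplotlib 3.10.9. Alternatives were other minimums (10 and 500 counts), 2-fold, scaling to the median of gene ratios, totals without mitochondrial UMIs, equal weight of clusters, and leaving out sets of clusters or single clusters of a class.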

Additional observations from a re-analysis of the deposited data

Results flagged for a closer look

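Ratios of summed levels lay on opposite sides of 1 in different classes of clusters, and the difference between classes was not tested, as there was 1 library per stage. For the nuclear members in Ob over Ctrl, the ratio was 1.48 in mesothelial-like and 1.29 in macrophage-like clusters, both above 1, and 0.907 in adipocyte-like clusters, below 1. In the adipocyte-like clusters the median log2 ratio of these members was -0.08, against -0.12 for all genes tested. For the mitochondrial members in Ob over Mid_Ob, the ratio was 1.24 in mesothelial-like clusters, above 1, and 0.627 in macrophage-like and 0.487 in fibroblast or progenitor-like clusters, below 1. The mesothelial-like classes of Mid_Ob and Ob are 1 cluster each, and the mitochondrial share reached 8.39% in 1 cluster of Ob that is in none of these classes.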

How the results depend on the processing

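No paired analysis was possible because each stage has 1 library. Of 420 recomputed values 169 moved beyond counting error or, for counts of genes, by over 1.5 times. Of 125 recomputed sum ratios 5 crossed 1, each of a pair whose ratio had not passed 1.5-fold. They were the mitochondrial ratio of Ob over Mid_Ob in whole libraries (1.37, then 0.915 with both sets of clusters left out), the same in adipocyte-like clusters (1.01, then 0.916 or 0.95 without cluster 5 or 7 of Ob), and the nuclear ratio of Mid_Ob over Ctrl in macrophage-like (1.01, then 0.943 without cluster 11 of Ctrl) and mesothelial-like clusters (0.9496, then 1.02 without cluster 5 of Ctrl). The cause was not tested. The share of all genes called was not computed for settings that left out or reweighted clusters, or that changed the fold or the minimum. In each list below, values follow the order Mid_Ob over Ctrl, Ob over Mid_Ob, Ob over Ctrl, and numbers of genes are those past the threshold. With the median of gene ratios set to 1, nuclear sum ratios were 0.957, 1.43 and 1.46 and mitochondrial ones 1.74, 1.47 and 2.73, with 8 nuclear members higher in Mid_Ob over Ctrl, 59 in Ob over Ctrl and 0 mitochondrial ones lower in Mid_Ob over Ctrl. In adipocyte-like clusters they were 0.844, 1.16 and 0.985 and 2.01, 1.02 and 2.06, with 1 nuclear member higher in Mid_Ob over Ctrl, 7 lower in Ob over Ctrl and 1 mitochondrial one higher in Ob over Mid_Ob. Without testis and epididymis clusters, nuclear ratios were 0.867 in Mid_Ob over Ctrl and 1.16 in Ob over Ctrl and mitochondrial ones 1.66, 1.18 and 1.96, with 0 nuclear members higher in Mid_Ob over Ctrl, 1 lower in Ob over Mid_Ob, and 0 mitochondrial ones lower in Mid_Ob over Ctrl and 2 in Ob over Mid_Ob. The mitochondrial share was then 0.2405% in Ctrl and 0.3995% in Mid_Ob. Without clusters above 1% mitochondrial UMIs, nuclear ratios were 1.18 in Ob over Mid_Ob and 1.01 in Ob over Ctrl and mitochondrial ones 1.47, 1.01 and 1.48. Then 21 nuclear members were higher in Ob over Mid_Ob and 22 in Ob over Ctrl, 4, 0 and 6 mitochondrial ones were higher, 2 were lower in each of the last pairs, and the shares were 0.184%, 0.270% and 0.272% in Ctrl, Mid_Ob and Ob. With both sets left out, an alternative added after seeing the data, nuclear ratios were 0.877, 1.20 and 1.05 and mitochondrial ones 1.73, 0.915 and 1.58, with 0, 24 and 16 nuclear members higher, 1 lower in Ob over Mid_Ob and 4 in Ob over Ctrl, 0 mitochondrial ones higher in Ob over Mid_Ob and 6 in Ob over Ctrl, and 0, 4 and 2 lower. Without Cox6b2, Cox7b2 and Cox8c, also added after seeing the data, nuclear ratios were 0.964 in Mid_Ob over Ctrl and 1.29 in Ob over Ctrl with 4 lower, and 0.816 and 0.931 in adipocyte-like clusters. With equal weight of clusters, nuclear ratios were 0.7998, 1.67 and 1.33 and mitochondrial ones 2.15, 1.40 and 3.02, with 60 nuclear members higher and 1 lower in Ob over Mid_Ob, 0 mitochondrial ones lower in Mid_Ob over Ctrl, and shares of 0.353%, 0.760% and 1.06% in Ctrl, Mid_Ob and Ob. At 2-fold, 0, 11 and 15 nuclear members were higher and 6 lower in Mid_Ob over Ctrl, 1, 1 and 6 mitochondrial ones were higher, and 0 were lower in Mid_Ob over Ctrl and in Ob over Mid_Ob. With a minimum of 10 counts, 1 nuclear member was lower in Ob over Mid_Ob. Leaving out each Ob cluster of the adipocyte-like class in turn gave, for Ob over Mid_Ob, nuclear ratios of 1.13 to 1.15, mitochondrial ratios of 0.916 to 1.13, 14 to 18 nuclear members higher and 0 to 1 lower, and 0 to 2 mitochondrial ones higher and 2 to 4 lower. For Ob over Ctrl it gave nuclear ratios of 0.896 to 0.918, mitochondrial ratios of 1.73 to 2.13, 9 to 10 nuclear members higher and 12 to 18 lower, and 6 to 9 mitochondrial ones higher and 1 lower. Depth limits rare isoforms most, such as Cox8b with 8 counts in Ctrl.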
